A study of Homo sapiens with 9 samples.

Results

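H3K9me3 windows listed in clone LmnB1_6 alone are stretches of the genome that lay inside a listed H3K9me3 domain in both libraries of that clone and outside every domain of the other 6 libraries of the series. The autosomes were cut into windows of 1 kb on the grid of the deposited domain lists, and a window was kept when both LmnB1_6 libraries listed it and 0 of the other 6 did. This gave 62153 windows, 62.2 Mb in all, out of 767046 windows listed in any of the 8 libraries (8.10%). Adjacent windows were joined into 1333 blocks. The windows were chosen by the listed domains of all 8 libraries, so their presence in LmnB1_6 and absence elsewhere were fixed, and the values below describe them and carry no test.

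The study profiled H3K9me3 by Cut&Run, in which a nuclease tethered to an antibody releases the DNA around a histone mark for sequencing. The cells were hTERT RPE-1, a telomerase-immortalised human line from retinal pigment epithelium, and carried either lamin B1 fused to mCherry (clones LmnB1_6 and LmnB1_16) or mCherry alone (clones mCherry_3 and mCherry_4). Each clone gave 2 biological replicates. All 8 libraries came from cells given doxycycline at 0.05 ug/mL for 24 hours. The shared input came from untreated wild-type cells, so the copy number of each clone was not measured. LmnB1_6 is 1 clone, and what belongs to this clone and what belongs to lamin B1 overexpression cannot be told apart within it. The lists hold no expression values, so the cell type was not checked against marker genes.

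H3K9me3 is laid down by the SUV39H and SETDB1 enzymes, is bound by HP1 proteins and marks silent heterochromatin. Much of it lies at the nuclear lamina, the protein mesh under the inner nuclear membrane of which lamin B1 is a main filament protein. Chromatin that contacts the lamina comes in long domains with few genes, low transcription and late replication, and differs from one cell type to another.

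Promoters of genes inside the blocks are shown first, because they are the parts of these windows for which a gene start is annotated. Each runs from 250 bases before to 50 bases after an annotated gene start, taken from RefSeq (GRCh38.p14), 5′ to 3′ on the gene's strand, and capitals mark CG dinucleotides, the sites of DNA methylation. KLHL1 (chr13:70108403-70108702, minus strand) and KCNJ3 (chr2:154698445-154698744, plus strand) are the longest genes that lay wholly in member windows, EDNRB (chr13:77919633-77919932, minus strand) is another of these genes, MITF (chr3:69936342-69936641, plus strand) is the one gene of a list of retinal pigment epithelium genes that held members, and LUZP2 (chr11:24496803-24497102, plus strand) has the most member windows among genes with a promoter inside them.
KLHL1: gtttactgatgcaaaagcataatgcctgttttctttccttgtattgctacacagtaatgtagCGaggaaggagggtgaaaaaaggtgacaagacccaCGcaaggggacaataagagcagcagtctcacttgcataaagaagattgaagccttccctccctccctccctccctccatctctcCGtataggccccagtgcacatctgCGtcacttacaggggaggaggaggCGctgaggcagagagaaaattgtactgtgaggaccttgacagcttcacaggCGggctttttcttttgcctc
KCNJ3: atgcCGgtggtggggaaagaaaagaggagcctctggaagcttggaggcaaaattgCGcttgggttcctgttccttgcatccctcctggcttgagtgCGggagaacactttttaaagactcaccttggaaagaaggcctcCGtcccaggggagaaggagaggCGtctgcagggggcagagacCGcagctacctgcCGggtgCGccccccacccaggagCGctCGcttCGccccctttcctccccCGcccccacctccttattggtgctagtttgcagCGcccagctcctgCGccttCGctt
EDNRB: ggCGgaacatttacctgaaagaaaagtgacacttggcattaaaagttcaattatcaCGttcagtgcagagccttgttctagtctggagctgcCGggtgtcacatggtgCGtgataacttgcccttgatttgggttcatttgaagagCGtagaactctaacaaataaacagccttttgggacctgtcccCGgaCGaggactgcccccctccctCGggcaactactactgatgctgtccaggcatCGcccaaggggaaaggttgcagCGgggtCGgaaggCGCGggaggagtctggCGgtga
MITF: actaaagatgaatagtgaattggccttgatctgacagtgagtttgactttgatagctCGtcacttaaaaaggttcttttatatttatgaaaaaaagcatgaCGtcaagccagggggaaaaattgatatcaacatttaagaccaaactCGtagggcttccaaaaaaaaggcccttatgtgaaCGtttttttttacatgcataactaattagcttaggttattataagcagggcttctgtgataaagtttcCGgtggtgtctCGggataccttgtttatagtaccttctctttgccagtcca
LUZP2: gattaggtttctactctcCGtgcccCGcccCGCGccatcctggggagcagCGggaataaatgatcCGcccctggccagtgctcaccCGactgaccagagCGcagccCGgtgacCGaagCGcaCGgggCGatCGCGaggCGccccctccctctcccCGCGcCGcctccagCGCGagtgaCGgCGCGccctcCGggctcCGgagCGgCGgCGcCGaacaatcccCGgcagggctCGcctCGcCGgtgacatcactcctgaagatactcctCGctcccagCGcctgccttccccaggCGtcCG
The EDNRB and MITF starts shown lie within the gene bodies, away from their outer ends, and which starts these cells use was not measured. The 5 promoters differed widely in CG content. The KLHL1 promoter held 6 CG dinucleotides and the MITF promoter 6, against 14 at EDNRB, 15 at KCNJ3 and 38 at LUZP2. The GC content was 50% at KLHL1, 61.7% at KCNJ3, 53.3% at EDNRB, 37.0% at MITF and 71.7% at LUZP2.

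In all, 69 of 21156 annotated autosomal promoters of protein-coding genes lay wholly in member windows, while 1657 lay in windows of any library. Their median GC content was 44.3%, with quartiles of 37.0% and 58.0%, against 53.3% over the 1657 promoters in windows of any library and 62.7% over 21156 autosomal promoters. The promoters in windows of all 8 libraries had a median of 44.8% (212 promoters). The ratio of observed to expected CG dinucleotides reached 0.6 in 18 of the 69 promoters (26.1%), against 27.8% in all 8 libraries, 39.2% in any library and 62.6% of all autosomal promoters. The letters TATAAA, on either strand, were found in 18.8% of the 69, in 23.6% of promoters in all 8 libraries, in 18.0% of those in any library and in 9.51% of all autosomal promoters. In GC content and CG ratio these promoters thus stood nearer to those of all 8 libraries, and in TATAAA nearer to those of any library. The 40 promoters in LmnB1_16 alone had a median GC content of 57.2%, a CG ratio of at least 0.6 in 42.5% and TATAAA in 12.5%. For the 36 in mCherry_3 alone these values were 49.7%, 16.7% and 16.7%, and mCherry_4 alone held 0 promoters. Several promoters can belong to 1 gene.

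The 2 LmnB1_6 libraries differed in how much they listed. Autosomal domains covered 616 Mb in replicate 1 and 350 Mb in replicate 2, against 302 to 569 Mb in the other 6 libraries. H3K9me3 reads inside autosomal domains numbered 9750128 and 4384656 in LmnB1_6 replicates 1 and 2, and 2674805 to 9789022 in the others. Members made up 10.1% of the windows of replicate 1 and 17.8% of those of replicate 2. Of the 341165 windows listed in both LmnB1_6 libraries, 62153 (18.2%) were in none of the other 6, while 166326 (48.8%) were in all of them and 66732 in 5. Just outside the rule, 8095 windows were in both LmnB1_6 libraries and in 1 other, most often LmnB1_16 replicate 1 (4680 windows). A window outside a list may hold reads just below the authors' threshold, since only domains with a log2 enrichment over 0.6 are listed.

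The same rule applied to the other clones gave far fewer windows. There were 15403 in LmnB1_16 alone (2.01% of windows in any library), 6911 in mCherry_3 alone (0.901%) and 334 in mCherry_4 alone (0.0435%). LmnB1_6 alone thus held 8.23 times the mean of the other clones. With every list shortened to about the covered length of the shortest, mCherry_4 replicate 2, the ratio was 3.70, with 46426 windows in LmnB1_6 alone, 12474 in LmnB1_16 alone, 6928 in mCherry_3 alone and 18218 in mCherry_4 alone, so the order of the other clones turned. The lists were then cut at unlike enrichment. The lowest log2 kept in replicates 1 and 2 was 0.93 and 0.63 in LmnB1_6 and 1.11 and 0.89 in LmnB1_16. It was 0.87 and 0.86 in mCherry_3, and 0.78 and 0.60 in mCherry_4. A window that another library listed below its cut can thus count as LmnB1_6 alone. As shares of the windows that both libraries of a clone listed, the values were 18.2% in LmnB1_6, 3.11% in LmnB1_16, 1.54% in mCherry_3 and 0.127% in mCherry_4. Each clone was measured once as a clone, so no test of LmnB1_6 against the others could be made. The count was 131501 without LmnB1_6 replicate 2 and 63935 without LmnB1_6 replicate 1. The ratio to the other clones was 17.1 without LmnB1_6 replicate 2, 5.44 without LmnB1_6 replicate 1, 3.61 without LmnB1_16 replicate 2, 5.36 without mCherry_3 replicate 1 and 5.44 without mCherry_3 replicate 2. With only domains of log2 enrichment of at least 0.8 kept in every list, 6970 windows were in LmnB1_6 alone, against 17944 in LmnB1_16 alone, 5708 in mCherry_3 alone and 142 in mCherry_4 alone, so the order of both LmnB1 clones turned.

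Blocks in LmnB1_6 alone were longer than those in the other clones alone. Their median length was 26 kb and the longest spanned 841 kb, against medians of 4, 3 and 4 kb and longest blocks of 236, 160 and 30 kb in LmnB1_16, mCherry_3 and mCherry_4 alone. The lists themselves also differed in domain length. Median domains in replicates 1 and 2 were 12 and 38 kb in LmnB1_6 and 8 and 10 kb in LmnB1_16. They were 15 and 16 kb in mCherry_3, and 33 and 29 kb in mCherry_4. Blocks of windows in all 8 libraries had a median of 17 kb. Blocks of 100 kb or more numbered 152 in LmnB1_6 alone and held 44.7% of its windows. In LmnB1_16 alone there were 8 such blocks, in mCherry_3 alone 1 and in mCherry_4 alone 0. Blocks under 10 kb held 2.01% of the windows in LmnB1_6 alone, against 46.2%, 39.8% and 33.8% in the other clones. The plot of sequence and block number by clone shows this split.

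**Figure D1:**
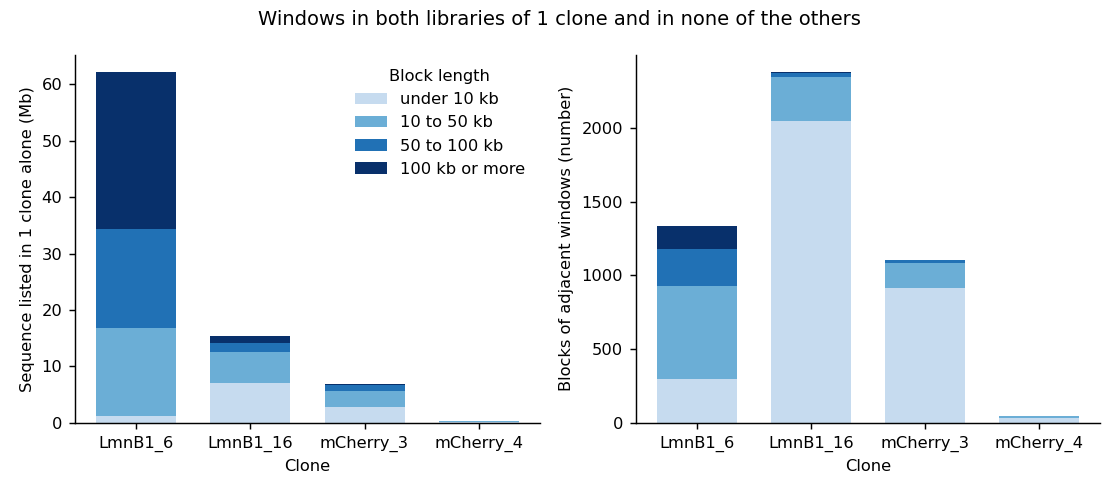
Sequence (left, in Mb) and number of blocks (right) listed in both libraries of 1 clone and in none of the libraries of the other clones, for each clone, with bar sections by block length. LmnB1_6 reaches 62.2 Mb in 1333 blocks, while LmnB1_16 reaches 15.4 Mb in 2377 blocks, most of them under 10 kb.

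Most members lay away from domains of other libraries. The median distance from a member window to the nearest window of any other library was 83 kb, with quartiles of 29 and 188 kb, and 44.8% of the members lay 100 kb or more away. The median distance to the nearest window of all 8 libraries was 2241 kb. Of the 1333 blocks, 709 (53.2%) touched a window of another library on at least 1 side and 165 (12.4%) on both. The 624 blocks that touched none held 51.9% of the member windows. In the 50 kb on both sides of the blocks, LmnB1_6 replicates 1 and 2 listed 78.3% and 25.2% of the windows, LmnB1_16 listed 21.1% and 11.3%, mCherry_3 7.99% and 7.32%, and mCherry_4 7.58% and 4.10%. Of the 2666 block edges, 1480 (55.5%) were places where replicate 1 of LmnB1_6 went on and replicate 2 stopped, 874 (32.8%) met a window of another library, and 243 (9.11%) were places where replicate 2 went on and replicate 1 stopped. Most block edges were thus set by the extent of the replicate 2 list.

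The longest block lay on chromosome 10 from 108788001 to 109629000 (GRCh38) in a gene desert, with XPNPEP1, an aminopeptidase gene, as the nearest protein-coding gene 236 kb away. Another block of 465 kb, from 108317001 to 108782000, lay 6 kb before it, and both sat in 1 domain of 1495 kb in each LmnB1_6 library. That domain held 36556 H3K9me3 reads in replicate 1 and 27432 in replicate 2 over the same 19786 input reads, an authors' log2 enrichment of 0.97 and 0.62. Its input density was high, since a domain of 1510 kb on chromosome 13 in replicate 1 held 12995 input reads. The input is the one from wild-type cells that all 8 libraries share, so its density does not describe the LmnB1_6 clone. Whether copy number plays a part here was not tested. Over the 3 Mb around the longest block, the listed share was 70.1% and 56.1% in LmnB1_6, 2.03% and 3.6% in LmnB1_16, 0 and 0 in mCherry_3, and 0 and 0.167% in mCherry_4.

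**Figure D2:**
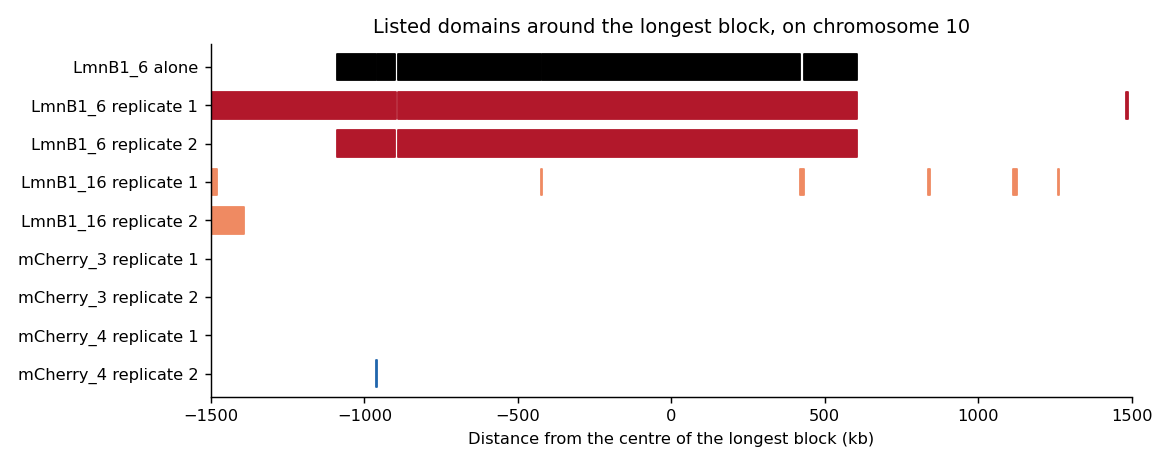
Listed domains of the 8 libraries, 1 row each, within 1500 kb of the centre of the longest block on chromosome 10, with the windows in LmnB1_6 alone in the top row; the x axis gives the distance from the centre in kb. Both LmnB1_6 libraries share a domain of 1495 kb, inside which LmnB1_16 replicate 1 lists short domains and the other 5 libraries list none.

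Chromosome 13 held 5 of the 12 longest blocks. A block of 616 kb from 81271001 to 81887000 had no protein-coding gene within 500 kb of its centre, and SPRY2, a regulator of receptor tyrosine kinase signalling, was the nearest at 930 kb. Blocks of 546 kb (69663001 to 70209000) and 320 kb (69157001 to 69477000) lay over and beside KLHL1, a kelch-family gene of neurons, in domains with a log2 enrichment of 1.17 in replicate 1 and 0.79 in replicate 2. Blocks of 426 kb (91855001 to 92281000) and 387 kb (92298001 to 92685000) lay inside GPC5, which encodes a glypican, a cell-surface heparan sulfate proteoglycan. On chromosome 2 a block of 659 kb from 154605001 to 155264000 held KCNJ3, a subunit of G protein-gated potassium channels, and one of 454 kb from 211225001 to 211679000 overlapped ERBB4, a receptor for neuregulins. The remaining long blocks were 348 kb on chromosome 21 (16673001 to 17021000, CXADR at 492 kb), 334 kb on chromosome 6 (124335001 to 124669000, inside NKAIN2) and 325 kb on chromosome 8 (110013001 to 110338000, with the potassium channel gene KCNV1 at 37.2 kb).

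Members were concentrated at the megabase scale. They fell in 379 bins of 1 Mb, of which 81 held at least 300 members each and 63.9% of all members together, and 23 of these 81 held no protein-coding gene. No bin count of other listed windows is given, so neither value sets the members apart from other H3K9me3 windows. The fullest bin, over ERBB4 on chromosome 2 (211000001 to 212000000), had 965 member windows, and a gene-free bin of chromosome 13 (81000001 to 82000000) had 961. Next came chromosome 13 from 69000001 to 70000000 with KLHL1 (950 windows), chromosome 11 from 24000001 to 25000000 with LUZP2 (928) and chromosome 10 from 108000001 to 109000000 (861). In the ERBB4 bin the covered share was 99.5% and 99.1% in LmnB1_6, 2.4% and 1.8% in LmnB1_16 and 0 in all 4 mCherry libraries. In the gene-free bin of chromosome 13 it was 100% and 98.2% in LmnB1_6, 1.5% and 0 in LmnB1_16, 0 and 0.6% in mCherry_3, and 0 in mCherry_4.

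Chromosomes contributed unequally. On chromosome 13, members were 5243 of 28168 windows listed in any library (18.6%), on chromosome 3 they were 13.02% and on chromosome 2 12.3%. On chromosomes 4, 5, 6, 7 and 8 the share ran from 9.73% to 10.6%, and on chromosome 10, part of which hTERT RPE-1 is known to carry in an extra copy, it was 6.50%. Chromosome 19, the autosome with most genes per Mb and with many zinc finger clusters under H3K9me3, had 0 members among 19090 listed windows. Chromosome 17 had 19 (0.12%), chromosome 20 had 53 (0.27%), chromosome 15 had 119 (0.58%) and chromosome 22 had 101 (1.12%). Gene density did not order the chromosomes throughout. Chromosome 18, with 3.36 protein-coding genes per Mb close to the 2.96 of chromosome 13, had 1.19% of its listed windows as members, and chromosome 11, with 9.63 genes per Mb, had 7.998%. On chromosome 18 both LmnB1_6 libraries together listed only 3004 of 30132 windows, and 11.9% of these 3004 were members. On chromosome 13 both listed 17359 of 28168 windows, and 30.2% of these were members. LmnB1_16 alone ran from 0.49% on chromosome 16 to 4.14% on chromosome 1, and mCherry_3 alone had its highest share, 2.80%, on chromosome 17.

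**Figure D3:**
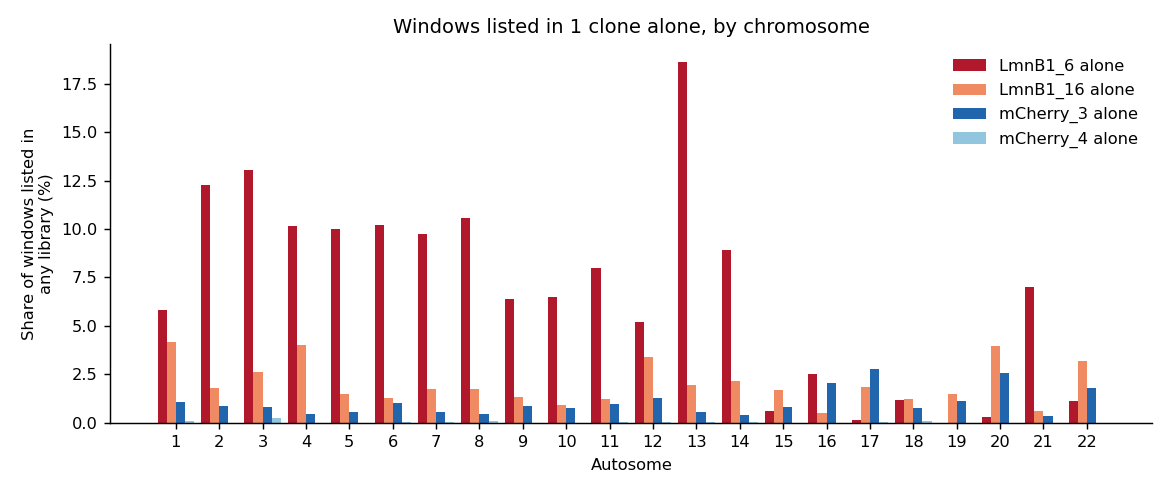
Share of the windows listed in any library (y axis, in percent) that were listed in 1 clone alone, for each autosome (x axis) and clone. LmnB1_6 alone reaches 18.6% on chromosome 13 and 0 on chromosome 19, while the other clones stay at or below 4.14% on every autosome.

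The surroundings of the members were poor in protein-coding genes. The median number of protein-coding genes within 500 kb of a member window was 1, the same as for windows of all 8 libraries. It was 2 for windows of any library and 5 over the autosomes from the first to the last annotated gene. The mean was 1.90 for members, against 2.97, 4.01 and 7.05 in these 3 sets. No protein-coding gene lay within 500 kb of 30.2% of the members, against 24.1%, 19.3% and 13.4% in these 3 sets. Windows in the other clones alone had means of 6.32 genes in LmnB1_16, 10.8 in mCherry_3 and 4.23 in mCherry_4. The median distance from a member window to a protein-coding gene was 186 kb, against 175 kb for windows of all 8 libraries, 103 kb for those of any library and 11 kb over the autosomes. Of the 1333 blocks, 927 (69.5%) overlapped no protein-coding gene, and 365 lay 500 kb or more from the nearest. The share without a gene was close to the 69.3% of blocks in all 8 libraries. It was 61.1% for blocks of any library, and 64.2%, 64.2% and 62.2% in LmnB1_16, mCherry_3 and mCherry_4 alone. With genes of all types in the table, non-coding RNA genes and pseudogenes included, 59.7% of the blocks overlapped a gene.

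The share of windows inside a protein-coding gene was close to that of windows of all 8 libraries and of any library. Of the members, 29.5% (18358 windows) lay in a protein-coding gene, against 28.5% of windows of all 8 libraries, 29.1% of windows of any library and 42.6% over the autosomes. In LmnB1_16, mCherry_3 and mCherry_4 alone the share was 37.0%, 36.8% and 40.1%. Where the members did enter genes, the genes were few and long. At least 1 member window lay in 173 of 19126 autosomal protein-coding genes (0.905%), with a median length of 217 kb against 24.5 kb for all. Among the 303 genes of 500 kb or more, 42 (13.9%) held members and took 59.4% of the member windows in genes. Among the 13115 genes under 50 kb, 36 (0.274%) did. Long genes were also listed more often in general, since 277 of the 303 genes of 500 kb or more and 1620 of the 13115 under 50 kb held a window of any library. The 25 genes with the most member windows took 11149 windows, 60.4% of those in genes.

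GPC5 (chromosome 13, 91398621 to 92867237) had the most, 1021 windows. Domains covered 89.7% and 71.8% of it in LmnB1_6, 1.70% and 1.97% in LmnB1_16, 0.61% and 1.29% in mCherry_3, and 0 in mCherry_4. NKAIN2 (chromosome 6, 123803865 to 124825640), whose product binds a subunit of the sodium pump, was covered over 93.5% and 81.0% in LmnB1_6, 1.66% and 0.88% in LmnB1_16, and 0 in all 4 mCherry libraries. For both genes the lower LmnB1_6 value stood far above the highest value elsewhere, a gap that the choice of windows builds in. EYS (chromosome 6, 63719980 to 65707226), a gene of the photoreceptor extracellular matrix whose loss causes retinitis pigmentosa, held 780 member windows and was covered over 89.7% in LmnB1_6 replicate 1, 40.0% in replicate 2, 0.50% in LmnB1_16 replicate 1 and 0 in the other 5. LUZP2 (chromosome 11, 24497053 to 25082638), a leucine zipper gene, was covered over 100% and 95.6% in LmnB1_6 and 0 in the other 6 libraries.

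Other genes of this group included signalling enzymes and receptors. ERBB4 held 700 member windows, PRKG1, a cGMP-dependent protein kinase, 555, and PDE4D, a cAMP phosphodiesterase, 537. ERBB4 was covered over 73.1% and 62.4% in LmnB1_6 and at most 2.41% elsewhere. PRKG1 was covered over 63.4% and 45.8% in LmnB1_6, 3.06% in mCherry_4 replicate 1 and 0 in the other 5. PDE4D was covered over 83.3% and 56.9% in LmnB1_6, 26.1% and 4.89% in LmnB1_16, and 1.80% to 7.98% in the mCherry libraries. AKAP6, an anchor for protein kinase A, held 259 windows and was covered over 46.6% in LmnB1_16 replicate 1, so that members were one part of a gene other clones also listed.

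Adhesion genes of neurons also held members. Members were found in 5 of 23 cadherin genes (21.7%), against 0.905% of all autosomal protein-coding genes. The 23 had a median length of 140 kb. By length, members were found in 0.942% of genes of 50 to 200 kb, 4.92% of those of 200 to 500 kb and 13.9% of those of 500 kb or more. In some library 11 of the 23 were listed. All 5, CDH12, CDH18, CDH8, CDH10 and CDH9, are type II cadherins. CDH18, CDH12, CDH10 and CDH9 lie in 1 stretch of chromosome 5, from 19471296 to 27038586, so they are not independent of one another. CDH12 held 494 windows and was covered over 96.5% and 46.8% in LmnB1_6 and at most 2.27% elsewhere. CDH10, with 120 windows, was covered over 100% and 76.0% in LmnB1_6 and 0 in the other 6, and CDH9, with 69, over 100% and 43.7% and 0 in the other 6. CDH8, with 133 windows, was also listed in part elsewhere, over 96.1% and 58.1% in LmnB1_6, 22.5% and 11.2% in LmnB1_16, 5.65% and 7.19% in mCherry_3, and 5.40% and 5.65% in mCherry_4. MDGA2, whose product binds neuroligins, held 550 windows and was covered over 99.2% and 92.3% in LmnB1_6 and 6.22% to 16.5% elsewhere. The plot of covered share by gene and library sets genes such as KLHL1, LUZP2 and THSD7A apart from THSD7B, which every library listed in part.

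**Figure D4:**
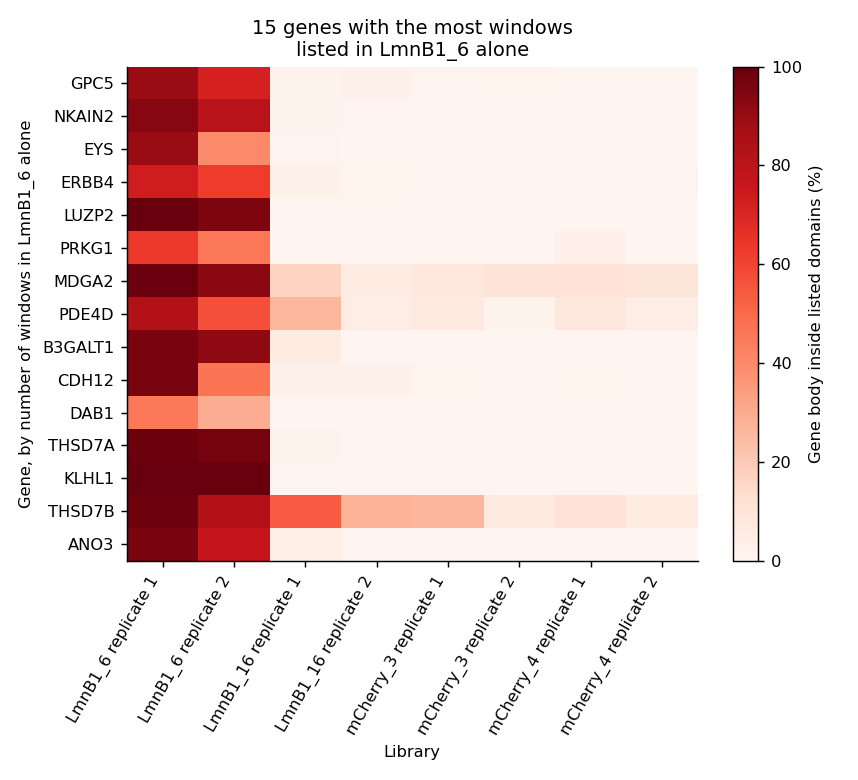
Share of each gene body inside listed domains (colour, 0 to 100%) for the 15 genes with the most windows in LmnB1_6 alone (rows) in the 8 libraries (columns). KLHL1 and LUZP2 are at 0 outside LmnB1_6, while THSD7B is covered over 5.70% to 53.8% in the other libraries.

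Further genes with many member windows were B3GALT1 (496 windows), DAB1 (449), THSD7A (439), KLHL1 (409), THSD7B (351), ANO3 (344), KAZN (292), CADM2 (286), KIF6 (282), CDH18 (272), XYLT1 (258), RALYL (232), CADPS2 (227) and KCNMB2 (213). B3GALT1 encodes a galactosyltransferase, DAB1 the adaptor of reelin signalling, and XYLT1 the enzyme that starts glycosaminoglycan chains. THSD7B, KAZN and CADM2 were also listed in part in the other clones, with 53.8%, 62.1% and 23.3% covered in LmnB1_16 replicate 1.

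Whole genes inside members numbered 25. KLHL1 (408 kb) and KCNJ3 (chromosome 2, 154698695 to 154858354) were covered over 100% in both LmnB1_6 libraries and 0 in the other 6, as the rule requires of such genes. SLC13A1, a sodium-sulfate cotransporter, measured 86.4 kb, and EDNRB, the endothelin receptor type B gene (chromosome 13, 77895487 to 77975527), 80.0 kb. The block over EDNRB was 239 kb long, from 77861001 to 78100000, and other libraries listed windows 64 kb to its left and 10 kb to its right. Its domains held 6869 reads over 3613 input reads in replicate 1 and 3103 over 2100 in replicate 2, a log2 enrichment of 1.01 and 0.71. TAS2R38 and TAS2R16, bitter taste receptor genes, and OR13C8, an olfactory receptor gene, were among the smallest, and were named after their values were seen, as was RPL10L, a retrotransposed ribosomal protein gene.

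Of the 25, 9 lay in 1 stretch of chromosome 4 from UGT2B15 to CSN3 (68646597 to 70251432). It holds glucuronosyltransferase genes of drug and steroid clearance, followed by genes of milk and saliva proteins. The 9 were UGT2B15, UGT2B11, UGT2B28, the salivary genes STATH, HTN3 and HTN1, and PRR27, ODAM and CSN3, the last of which encodes kappa-casein. Of 20 protein-coding genes in the stretch, 15 held a member window. It was covered over 89.9% in LmnB1_6 replicate 1 and 49.1% in replicate 2, 1.25% and 0.374% in LmnB1_16, and 0 in all 4 mCherry libraries. UGT2B10, SULT1E1, CSN1S1 and CSN2 were covered over 100% in replicate 1 and 0 in replicate 2, so they held no member. UGT2B7, the remaining gene without a member, was covered over 0 in both LmnB1_6 libraries and 12.98% in LmnB1_16 replicate 1. UGT2B genes are close copies of one another, and reads can be assigned to the wrong copy, so their coverage is uncertain.

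MITF was the one of 18 retinal pigment epithelium genes that held members (5.56%, against 0.905% of all autosomal protein-coding genes), and 2 of the 18 were listed in any library. With 1 gene, the share of this list cannot be set apart from that background. It encodes a transcription factor needed for the development of pigment epithelium and melanocytes. MITF (chromosome 3, 69739464 to 69968332) was covered over 100% in LmnB1_6 replicate 1, 64.4% in replicate 2 and 0 in the other 6 libraries. Its members formed blocks of 130 kb (69817001 to 69947000) and 37 kb (69951001 to 69988000), with the promoter printed above, which lies within the gene body, inside the first. The outer start of the gene, at 69739464, lies before both blocks and held no member. The nearest window of another library lay 303 kb or more from either block. Enrichment there was low in replicate 2, with 1564 reads over 1128 input reads and a log2 value of 0.62 in the first block, and 480 over 318 and 0.74 in the other. In replicate 1 both lay in a domain of 579 kb at 0.85.

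Other gene lists lay on both sides of the 0.905% of all autosomal protein-coding genes that held a member. Among 505 zinc finger genes, 2 (0.396%) held a member window, ZNF385D with 207 and ZNF514 with 1, although 338 were listed in some library. Among 391 olfactory receptor genes 2 did (0.512%, OR9A4 and OR13C8), although 203 were listed in some library. None of 53 clustered protocadherins, of which 50 were listed in some library, and none of 149 keratin and keratin-associated genes, of which 60 were, held a member. Solute carriers, with 2 of 370 (0.541%, SLC13A1 and SLC5A12), also lay below that share. Above it were potassium channels with 4 of 94 (4.26%, KCNMB2, KCNJ3, KCNV1 and KCNQ1), collagens with 1 of 42 (2.38%, COL11A1) and contactins and CNTNAPs with 1 of 13 (7.69%, CNTN5). With 1 gene each, collagens and contactins cannot be set apart from the share of all genes. KCNQ1 held only 5 member windows and was covered over 5.94% to 28.5% in the libraries of the other clones. None of 12 nuclear lamina genes and none of 15 H3K9 methylation genes held a member, and 3 of each were listed in some library. These lists were chosen with results of these data known, and their genes differ in length.

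Of 1461 annotated microRNA hairpins on the autosomes, 6 (0.411%) lay in member windows. They included MIR548AS inside a GPC5 block of 387 kb and MIR582 in a PDE4D block of 99 kb. Their mature sequences from RefSeq (GRCh38.p14) are given with the seed, bases 2 to 8, in capitals, since the seed sets which transcripts a microRNA pairs with.
hsa-miR-548as-5p: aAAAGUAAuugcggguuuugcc
hsa-miR-548as-3p: uAAAACCCacaauuauguuugu
hsa-miR-582-5p: uUACAGUUguucaaccaguuacu
hsa-miR-582-3p: uAACUGGUugaacaacugaacc
No seed was shared among these sequences. The other hairpins were MIR4431, MIR4275, MIR302F and MIR592, in blocks of 12 to 85 kb.

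Enrichment at the members was moderate in LmnB1_6 replicate 1 and close to the threshold in replicate 2. The domains that held members had a median log2 enrichment, taken over member windows, of 0.99 in replicate 1 and 0.69 in replicate 2. Windows of all 8 libraries had medians of 1.00 and 0.71 in the same lists, and all windows of each list 0.93 and 0.70. In replicate 2, 57.8% of the members lay in domains below 0.7, as did 51.9% of all windows of that list, and 10.5% lay in domains of at least 0.8. In replicate 1, 93.7% of the members lay in domains of at least 0.8 and 44.2% in domains of at least 1, against 0.0531% at that level in replicate 2. Low values in replicate 2 were thus shared by its whole list.

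Domains with at least 50% of their length in members numbered 203 in replicate 1, with a median length of 206 kb, and 767 in replicate 2, with a median of 50 kb. Their median H3K9me3 read density was 15.2 and 12.2 reads per kb, against 15.7 and 12.3 for domains without members. The input density was 8.54 and 8.41 reads per kb, against 8.62 and 8.33. Both densities thus lay close to those of other domains of the same list. The lowest log2 value was 0.63 in replicate 1 and 0.60 in replicate 2, and the highest 1.38 and 1.12, against highest values of 4.86 and 2.99 among domains without members. In both lists the single highest value thus belonged to a domain without members. Domains with a smaller share of members fall in neither set, and 1 of 5 kb in replicate 1 reached 1.71. Domains without members were also shorter and more numerous. They numbered 7441 and 4150 in replicates 1 and 2, with median lengths of 11 and 36 kb.

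**Figure D5:**
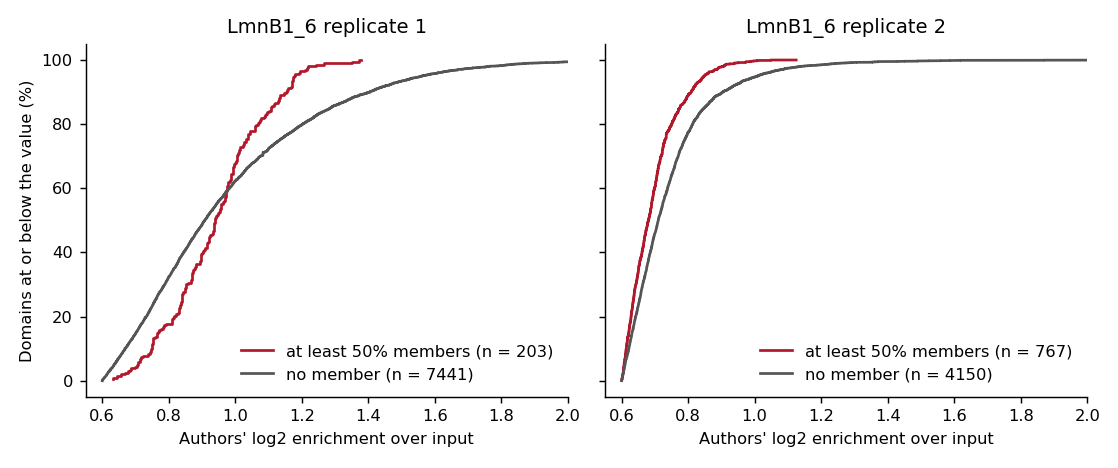
Cumulative share of domains (y axis, in percent) by the authors' log2 enrichment over input (x axis, drawn to 2) in LmnB1_6 replicates 1 and 2, for domains with at least 50% of their length in members (red) and with none (grey). The red curve ends at 1.38 in replicate 1 and 1.12 in replicate 2.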

How the data were processed

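H3K9me3 Cut&Run was measured in 8 libraries of 4 clones. Each library has 1 deposited domain list, called without pooling replicates. Tools named, without roles, in the submitters' processing notes are deepTools, DESeq2, SICER and DiffBind (3.0.15), and the build is GRCh38 (hg38). The read aligner was not given in sources used here. The deposited lists give, for each domain, the count of H3K9me3 reads and of input reads, the authors' p-value and adjusted p-value, the authors' log2 enrichment over input, and the authors' score, which is 100 times that log2 value. Reads are known for listed domains only, so no count model was run.

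Domain ends were extended by 1 base to the 1000 base grid. Windows, blocks, gene overlap (RefSeq, GRCh38.p14, 19126 autosomal protein-coding genes in the table) and coverage were computed in Python 3.11.15 with numpy 2.4.6, pandas 2.3.3 and scipy 1.17.1, and drawn with matplotlib 3.10.9. The code was tested on simulated lists and returned 200 of 200 planted blocks. Genes are named as the 25 with the most members, the nearest to the 12 longest blocks, those wholly in members (the 20 longest) and genes with members in the pigment epithelium, lamina and H3K9 lists. Genes of other lists, and neighbours in the chromosome 4 stretch, were named after their values were seen. The members and lists were chosen with earlier results of these data known. Replicates were labelled as biological, and no p-value was computed because the rule used all 8 libraries. Counting error covers reads only. Read counts of mCherry_3 replicates 1 and 2 over 229 domains with identical coordinates varied little beyond sampling (chi-square of 1.08 per degree of freedom, against 1.73 in LmnB1_6, 1.10 in LmnB1_16 and 1.67 in mCherry_4), and the count of members is given without either. The alternatives changed the threshold, covered length, gaps, window size, block length, chromosomes and libraries used. Some genes and lists are not reported here.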

Additional observations from a re-analysis of the deposited data

Results flagged for a closer look

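Chromosome X lies outside the windows described above. There 641 windows in 32 blocks were listed in LmnB1_6 alone, 1.08% of the 59405 windows listed in any library on that chromosome. The value stands above that of mCherry_4 alone (161 windows) and below that of mCherry_3 alone (1215 windows), and LmnB1_16 alone had 289. It was picked out as a signal in a chromosome that the members do not include, and the difference between clones was not tested.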

How the results depend on the processing

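With all lists as deposited there were 62153 windows in LmnB1_6 alone, 29.5% of them in a protein-coding gene, and 8.23 times the mean count of the other clones. At a log2 enrichment of at least 0.8 in every list these values were 6970, 37.9% and 0.879, and at 1 they were 61, 41.0% and 0.00355. With at least 1 asked of LmnB1_6 only, there were 13 windows (7.69% in genes). With it asked of LmnB1_6 replicate 1 only, chosen after seeing the data, there were 27480 (32.4% in genes). The ratio was 3.70 at equal covered length (46426 windows, with the shortest list, mCherry_4 replicate 2, not shortened and mCherry_4 alone at 18218), 14.4 in blocks of at least 10 kb and 4.15 with up to 1 other library allowed. At equal covered length the lowest log2 kept ran from 0.60 in mCherry_4 replicate 2 to 1.11 in LmnB1_16 replicate 1. Leaving out 1 library in turn gave 62457 to 131501 windows, 26.7% to 29.6% in genes and ratios of 3.61 to 17.1. The median distance of a block to a gene was 144 kb for protein-coding genes and 0 with genes of all types, because more blocks then overlap a gene. Joined domains, windows of 5 kb, a distance of 10 kb from other libraries, blocks of at least 3 kb and chromosome X kept counts and ratios within 1.5 times and gave gene shares of 29.4% to 30.3%. The cause of these shifts was not tested. No paired analysis was possible because the result comes from no test.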
